A study of Mus musculus with 3 samples.

Results

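The V, D and J segments of the T-cell receptor beta chain (Trbv, Trbd and Trbj) were examined in total RNA of mouse splenic T cells. All annotated genes whose symbol begins with Trbv, Trbd or Trbj were taken, which gave 51 of 55536 genes. They comprise 22 V genes, 13 V pseudogenes, 2 D genes, 13 J genes and 1 J pseudogene, Trbj2-6. That rule uses the symbol and no measured value, but it was set with earlier results of these data known.

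The cells were primary T cells labelled m.CD3, from spleens of virgin females aged 66 days, and the labels name no treatment. The mice were B6CASTF1/J hybrids, whose mother was C57BL/6 and whose father was CAST/EiJ, so each cell carries a beta locus from each parental strain. The 3 libraries form 1 group, replicates 1, 2 and 3, and a directional kit was used on 300 ng of RNA per library, with a synthetic spike-in mix added. The 3 biosamples of the labels share 1 donor record, so that SDs and p-values describe the spread between these 3 preparations, part or all of which may be technical. Comparisons were made between segments within a library and between the libraries, and all values ± SD have n = 3. Markers of the labelled cell type were present, as described at the end.

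The beta chain gene is assembled in developing T cells of the thymus. The recombinase made by Rag1 and Rag2 first joins a D to a J segment and then a V segment to that DJ joint, and splicing links the assembled exon to a constant region, Trbc1 or Trbc2. The V segment codes for most of the variable domain, and the joints between V, D and J code for the third complementarity-determining region, the loop that meets the peptide. Each mature T cell normally makes a beta chain from a single rearranged allele, and the amount of each V transcript in a T-cell population is therefore read as V usage. In bulk RNA, fewer cells with a V segment and less RNA per cell cannot be told apart.

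The members lie on mouse chromosome 6 of mm10 between 40891229 and 41558452, a span of 667 kb. Trbv1 is the outermost segment and is followed, after a gap of 155 kb, by Trbv2 to Trbv30 over 235 kb. A further 251 kb separates Trbv30 from Trbd1, and the D and J segments with Trbc1 take up 10.7 kb. Trbv31 is the exception in place and direction, 9.34 kb beyond Trbc2 and on the minus strand.

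The ends of the V segments show what the joint is built on. The last 60 bases of each V segment, in the annotated entry with the most counts in the second quantification, were read from the GENCODE M21 transcripts (mm10). The 4 V genes with the highest counts, one more V gene that carries the usual ending, and Trbv31 are shown here, with the motif TGTGCNAGC in capitals. Its first codon, TGT, is that of the conserved cysteine at which the third complementarity-determining region begins.
Trbv29: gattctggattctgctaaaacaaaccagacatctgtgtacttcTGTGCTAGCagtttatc
Trbv13-2: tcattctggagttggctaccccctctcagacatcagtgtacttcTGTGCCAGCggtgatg
Trbv2: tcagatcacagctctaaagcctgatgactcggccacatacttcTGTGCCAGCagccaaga
Trbv1: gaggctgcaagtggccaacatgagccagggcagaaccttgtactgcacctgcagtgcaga
Trbv19: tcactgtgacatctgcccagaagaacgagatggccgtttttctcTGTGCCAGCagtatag
Trbv31: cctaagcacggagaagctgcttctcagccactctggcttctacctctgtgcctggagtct
The ending TGTGCNAGC, searched on the coding strand, was found in the last 60 bases of 17 of 22 V genes (77.3%) and of 4 of 13 V pseudogenes (30.8%). The narrower TGTGCCAGC, which is one form of it, stood in 13 V genes and in the same 4 pseudogenes, Trbv12-3, Trbv18, Trbv22 and Trbv24. Of 141515 annotated transcripts, 0.102% ended with the wider and 0.0502% with the narrower motif in the same window. Trbv1, Trbv20, Trbv23, Trbv30 and Trbv31 were the V genes without it. A reading frame free of stops over the 240 bases before the last 12 was present in 22 of 22 V genes and in 2 of 13 V pseudogenes, Trbv10 and Trbv11.

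The D and J segments are far shorter. Both D segments and 1 J gene of each cluster are shown whole, since their length bears on what the deposited tables can hold, and capitals mark the J motif TTNGGNNNNGGN, searched on the coding strand. Its codons stand for phenylalanine (or leucine), glycine, any residue and glycine, the residues that close the loop.
Trbd1: gggacagggggc
Trbd2: gggactgggggggc
Trbj1-1: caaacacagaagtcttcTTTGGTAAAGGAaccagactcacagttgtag
Trbj2-7: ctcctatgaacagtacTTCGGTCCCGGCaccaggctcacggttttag
The J motif was found in 11 of 13 J genes, the exceptions being Trbj1-6 and Trbj1-7, and not in the pseudogene Trbj2-6. It stood in the last 50 bases of 0.601% of 141672 annotated transcripts.

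No D or J segment had a count in any library. All 16 of these members were at 0 in the first tables and at 0 in the second quantification, a separate transcript quantification deposited for each library. Their annotated entries run from 12 bases (Trbd1) to 54 bases (Trbj1-3). In the first tables the effective length, the number of start positions a read can take, equalled the length minus 100, or 0 for shorter entries, for 141862 of 141862 transcript entries. Reads of 101 bases give this relation. The effective length of all 16 D and J members was 0, so no position was open to a read within them, and their counts of 0 say nothing about D or J usage. The same was true of 60 of 60 alpha-chain J segments (Traj), all with an effective length of 0 and no count, and of 2452 of the 55536 annotated genes.

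**Figure D1:**
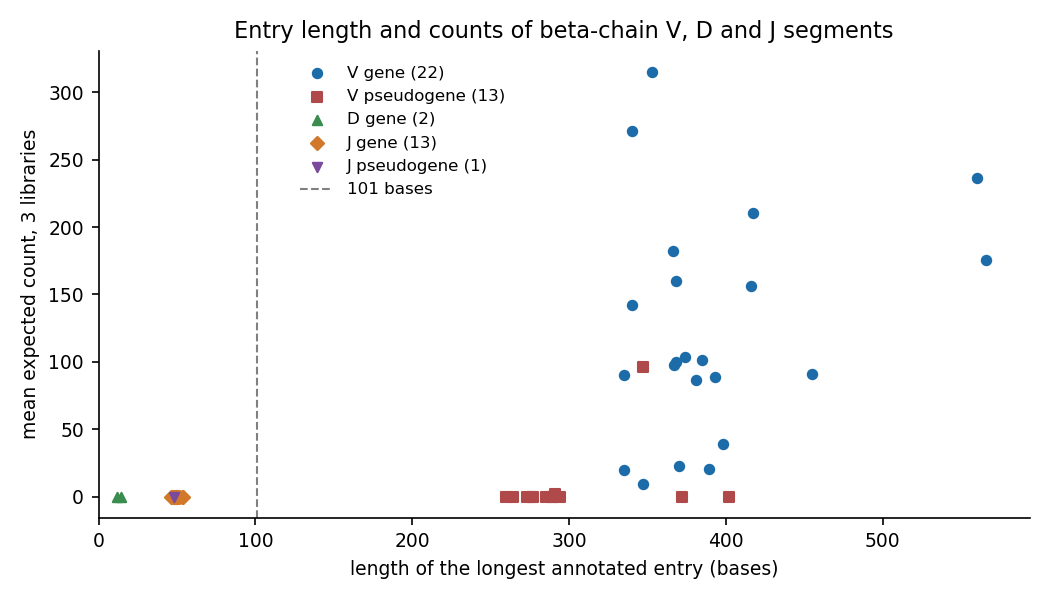
Mean expected count over the 3 libraries (vertical axis) against the length of each member's longest annotated entry in bases (horizontal axis), 1 point per member. All 16 D and J segments lie left of the dashed line at 101 bases and at 0 counts, and 22 V genes with 2 of 13 V pseudogenes lie above 0.

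V segments, by contrast, were read in every library. Counts were above 0 in all 3 libraries for 24 of 51 members, namely all 22 V genes and the pseudogenes Trbv22 and Trbv24, and 27 members were at 0 throughout. Among all annotated genes, 17478 of 55536 had counts in all 3 libraries. The V genes together held 2954, 2692 and 2510 expected counts in replicates 1, 2 and 3, out of 16.9, 15.0 and 16.2 M (mega) counts on annotated genes. That is 175, 180 and 155 CPM, the counts per M counts (169.9 ± 13.1). Replicate 3 was the lowest of the 3 in this share.

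The constant regions, which every beta transcript carries, gave 11709, 10209 and 10316 counts in replicates 1, 2 and 3. The V genes thus had 25.2, 26.4 and 24.3 counts per 100 constant-region counts (25.3 ± 1.02). Constant-region exons are longer than V segments, and per length the V genes reached 53.8 ± 2.13 TPM per 100 TPM of Trbc1 and Trbc2. In TPM, which scales abundance by effective length and depth, the V genes summed to 606, 612 and 516, against 1131, 1091 and 995 for the constant regions. Trbc1, the constant region of the first D-J cluster, held 41.0% ± 1.05 of the constant-region counts and Trbc2 the rest. Of the stretches of 101 bases in their entries, 181 occur in both, which is 28.0% of those of Trbc1 and 30.6% of those of Trbc2. The deposited posterior SD, a measure of reads that several entries share, was at most 0.610% of the count of Trbc1 and 0.404% of that of Trbc2.

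The counts of V genes were unequal. Both quantifications rest on the mm10 annotation, and the part that CAST/EiJ alleles have in the shares was not tested. The 3 highest, Trbv29, Trbv13-2 and Trbv2, took 31.2%, 29.2% and 30.2% of V gene counts in replicates 1, 2 and 3 (30.2% ± 0.991). The 8 highest took 62.8% ± 0.108 and the 4 lowest 2.69% ± 0.405. The inverse Simpson index, the number of equally used segments that would give the same concentration, was 15.3 ± 0.116 for the 22 V genes. For the alpha-chain V genes (Trav) of the same libraries it was 64.5 ± 2.09, over 108 annotated genes of which 91 had counts in all 3 libraries. The highest beta V gene held 11.6% ± 0.560 of its family's counts and the highest alpha V gene 3.52% ± 0.169. Both measures depend on the number of genes in a family and were not scaled for it. The posterior SD was above 0 in every library for 89 of 108 Trav genes and 2 of 22 Trbv genes. What such shared reads do to either measure was not tested. Trbv genes summed to 2719 ± 223 counts and Trav genes to 2268 ± 46.9, and the Trbv total was the higher in each library.

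**Figure D2:**
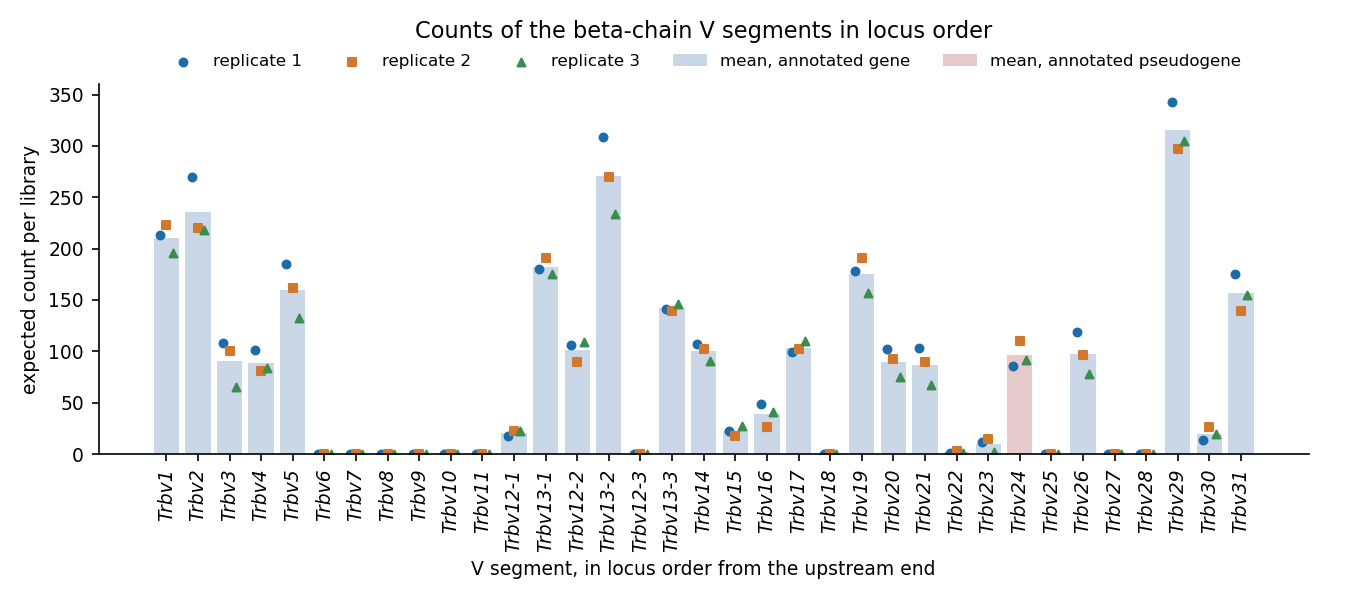
Expected counts per library (vertical axis) of all 35 V segments in locus order (horizontal axis), with points for replicates 1, 2 and 3 and bars for their mean. Trbv29 has the tallest bar at 315 counts, and among the segments annotated as pseudogenes Trbv24 reaches a mean of 96 and Trbv22 of 1.67, with the other 11 at 0.

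Trbv29 (ENSMUSG00000076480.2, chromosome 6, 41271394 to 41271881), formerly Vbeta7, had 343, 297 and 305 counts in replicates 1, 2 and 3, or 11.6% ± 0.560 of V gene counts. It was the highest V gene in each library. Trbv13-2 (ENSMUSG00000076469.3, 41121396 to 41121832), the beta segment of the Vbeta8.2 chain that many invariant natural killer T cells of mice use, had 309, 270 and 234 counts, or 9.94% ± 0.574. Trbv2, the Vbeta4 segment, had 270, 220 and 218 counts, or 8.67% ± 0.485. Replicate 1 gave the highest count for each of these 3 segments, as it did for the library total.

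Trbv1, the most upstream segment, had 213, 223 and 196 counts in replicates 1, 2 and 3 (7.77% ± 0.537). Trbv13-1 followed with 180, 191 and 175 counts (6.72% ± 0.546) and Trbv19 with 178, 191 and 157 (6.46% ± 0.563). For these 3 replicate 2 was the highest library. Trbv5 had 184.9, 161.7 and 132.8 counts (5.85% ± 0.503). Trbv31, the segment in inverted orientation downstream of Trbc2, had 175, 139 and 155 (5.75% ± 0.527). It thus stood in the eighth place of 22.

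The 10 V genes below these were Trbv13-3 (5.25% ± 0.527), Trbv17 (3.84% ± 0.518), Trbv12-2 (3.76% ± 0.521), Trbv14 (3.68% ± 0.0951), Trbv26 (3.57% ± 0.460), Trbv3 (3.32% ± 0.633), Trbv20 (3.30% ± 0.269), Trbv4 (3.25% ± 0.229), Trbv21 (3.17% ± 0.436) and Trbv16 (1.42% ± 0.393). From Trbv17 to Trbv21, between 3.84% and 3.17%, no segment differed from its neighbour in the order beyond the spread.

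The 4 lowest V genes were Trbv15, Trbv12-1, Trbv30 and Trbv23. Trbv15 had 22, 18 and 27 counts in replicates 1, 2 and 3, and Trbv12-1 had 18, 22 and 22. Trbv30, the segment nearest to the D segments on their upstream side, had 14, 26 and 20. Each of these 3 held under 1% of V gene counts on average, at 0.830% ± 0.216, 0.768% ± 0.140 and 0.746% ± 0.250. Trbv23 (ENSMUSG00000076478.7, 41216073 to 41216526) was the lowest with 12, 15 and 2 counts, a share of 0.348% ± 0.244, and replicate 3 stood far below the others. The count of 2 there is under the 3 counts that an observed 0 allows, which correspond to 0.102%, 0.111% and 0.120% of V gene counts in replicates 1, 2 and 3. Such limits cover counting error only.

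A pair of neighbours in the order was held apart when the difference of their shares had the same sign in all 3 libraries and its mean exceeded its SD. That was so for 7 of 21 pairs. How many pairs would meet this rule by counting error alone was not estimated. Trbv29 exceeded Trbv13-2 by 1.66 ± 1.01 percentage points, Trbv13-2 exceeded Trbv2 by 1.27 ± 0.611, and Trbv1 exceeded Trbv13-1 by 1.05 ± 0.186. The step with the smallest SD was from Trbv13-3 down to Trbv17, 1.41 ± 0.0317 percentage points. The others were from Trbv21 to Trbv16 (1.75 ± 0.674), from Trbv16 to Trbv15 (0.590 ± 0.310) and from Trbv30 to Trbv23 (0.398 ± 0.325). The order is a description, since the segments were ranked by these values. Some steps depended on the measure. In the second quantification Trbv29 minus Trbv13-2 was -5.01 ± 0.674 and Trbv13-3 minus Trbv17 was -0.73 ± 0.604 percentage points, and in TPM Trbv1 minus Trbv13-1 was -0.22 ± 0.209. The step from Trbv30 to Trbv23 did not exceed its SD without replicate 2 (0.392 ± 0.459) or without replicate 3 (0.238 ± 0.241).

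The libraries gave nearly the same profile. The 8 highest segments were also the 8 highest of replicates 1 and 2, and 7 of 8 of replicate 3. The 4 lowest were the 4 lowest of replicates 1 and 3, and 3 of 4 of replicate 2. Both lists were ranked by the mean of these same libraries, so part of this overlap is built in. Across the 22 V genes, which share each library's depth and are not independent replicates, the shares of 2 libraries had Pearson's r of 0.982, 0.975 and 0.977 and Spearman's rho of 0.952, 0.922 and 0.952 for replicates 1 and 2, 1 and 3, and 2 and 3. The largest gap between replicates 1 and 2 was that of Trbv1, at 7.21% and 8.28%. Between replicates 1 and 3 it was that of Trbv13-2, at 10.5% and 9.32%, and between replicates 2 and 3 that of Trbv3, at 3.71% and 2.59%.

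For most V genes the spread of a share lay above what counting alone gives, but within 2 times it. The coefficient of variation (CV) of the share lay below the counting CV, the inverse square root of the mean count, for 7 of 22 V genes, and above 2 times it for 1. That one was Trbv23, with a CV of 70.2% against 32.2% from counting. Trbv29 had 4.83% against 5.63%. Trbv14 had the lowest CV in the first tables, 2.58% against 10% from counting. Its counts were 107, 102 and 91 in replicates 1, 2 and 3. In the second quantification they were 36, 52 and 45, and its share was 2.25% ± 0.449.

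**Figure D3:**
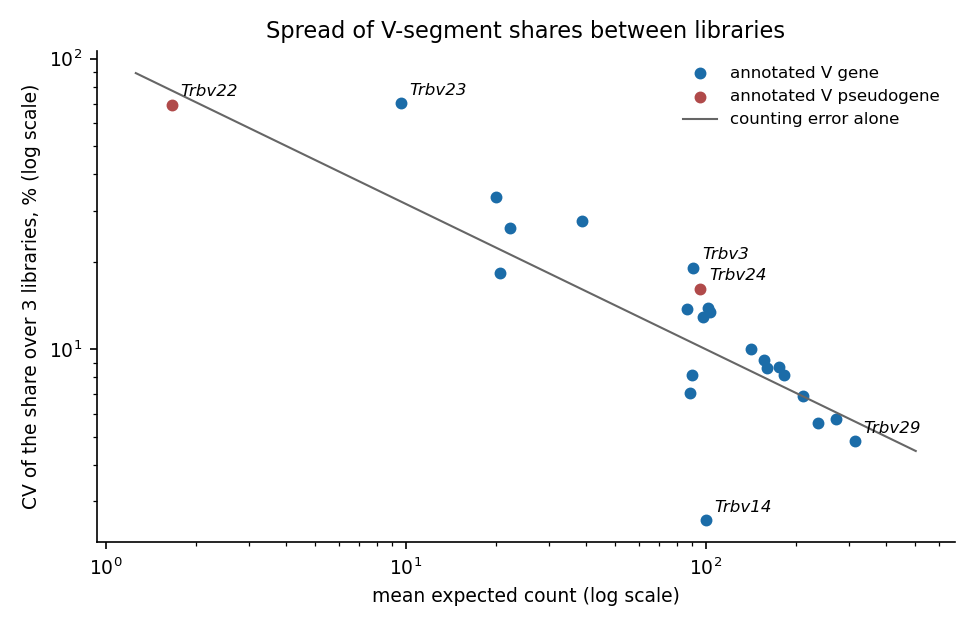
Coefficient of variation of each V segment's share over the 3 libraries in % (vertical axis, log scale) against its mean expected count (horizontal axis, log scale), for the 22 annotated V genes and the 2 pseudogenes with counts. The line is the CV from counting alone, and Trbv23 at 70.2% lies farthest above it while Trbv14 at 2.58% lies farthest below.

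A test across all genes asked which varied between the libraries more than genes of like abundance. In edgeR's quasi-likelihood fit, 75 of 13280 genes tested were called at an adjusted p under 0.05, a background of 0.565%. Of the 51 members, 22 entered the test, 21 V genes and Trbv24, and 0 were called. At an unadjusted p under 0.05 there were also 0 of 22 members, against 5.69% of all genes. Trbv23 and Trbv22 were below the filter on low counts, and the other 27 members had no counts. The smallest adjusted p of a member in edgeR's test was 0.964, for Trbv3, which had 108, 100 and 65 counts in replicates 1, 2 and 3 (unadjusted p = 0.0878). The median ratio of a gene's dispersion to the trend was 0.999 for the members tested and 0.734 for all genes. This order was not stable: the medians were 0.438 and 0.471 without replicate 2, 0.231 and 0.470 without replicate 3, 0.563 and 0.733 at a mean count of at least 100, and 0.691 and 0.728 in the second quantification. DESeq2 marked 125 of the 13280 genes (0.941%) as having an outlying dispersion and 0 of the 22 members.

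Families of related V segments were read unevenly. The Trbv13 family (formerly Vbeta8), 3 V genes, held 21.9% ± 0.511 of V gene counts. Within it Trbv13-2 averaged 271 counts, Trbv13-1 averaged 182 and Trbv13-3 averaged 142. The Trbv12 family (formerly Vbeta5) held 4.53% ± 0.601, most of it in Trbv12-2, which had 106, 90 and 109 counts in replicates 1, 2 and 3. Trbv12-1 averaged 20.7 ± 2.31 counts, and the third member, the pseudogene Trbv12-3, was at 0.

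The sequences of these families were close but distinct at read length. Trbv13-2 and Trbv13-3 were identical at 90.6% of aligned bases, Trbv13-1 and Trbv13-2 at 88.7%, Trbv13-1 and Trbv13-3 at 86.1%, and Trbv12-1 and Trbv12-2 at 88.3%. Among 9262 stretches of 101 bases in the members' entries, 0 occurred in another member. The posterior SD of the count was above 0 for 2 of 22 V genes, against 89 of 108 Trav genes. These were Trbv4 and Trbv5, at up to 1.38% and 1.46% of the count. Both share exon sequence with the lincRNA 5830405F06Rik, which spans them: 197 of 293 stretches of Trbv4 (67.2%) and 196 of 268 of Trbv5 (73.1%) occur in it. The lincRNA itself was assigned 159.9, 119.8 and 137.3 counts in the second quantification, against 19.1, 11.8 and 15.2 in the first tables, in replicates 1, 2 and 3. Trbv4 and Trbv5 had 0.687 ± 0.0193 and 0.690 ± 0.0733 of their first counts in the second quantification. The pseudogene Trbv8 shares 185 of 185 stretches with the overlapping AC153851.1, and both were at 0.

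Of the 13 V pseudogenes, Trbv24 was read as often as many V genes. Trbv24 (ENSMUSG00000102955.1, chromosome 6, 41218091 to 41218557) had 86, 110 and 92 counts in replicates 1, 2 and 3 (96.0 ± 12.5), or 23.7 ± 4.52 TPM. That was 3.43% ± 0.554 of the counts of all V segments. In the first tables its level lay beside that of Trbv26, at 97.7 ± 20.6 counts and 22.2 ± 4.61 TPM. In the second quantification Trbv24 averaged 47.7 ± 4.62 counts and Trbv26 averaged 101.7 ± 16.3. Trbv26 is a V gene with which Trbv24 is identical at 74.6% of 343 aligned bases. Trbv22 had 1, 3 and 1 counts. The other 11 pseudogenes, Trbv6, Trbv7, Trbv8, Trbv9, Trbv10, Trbv11, Trbv12-3, Trbv18, Trbv25, Trbv27 and Trbv28, were at 0 in the first tables, and Trbv10 alone had 1 count in the second quantification, in replicate 2.

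The last 60 bases of Trbv24 and Trbv26 are shown together, since a stop codon of Trbv24 lies within them. Capitals mark the positions at which they differ.
Trbv24: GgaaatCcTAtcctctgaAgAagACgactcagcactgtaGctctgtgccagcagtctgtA
Trbv26: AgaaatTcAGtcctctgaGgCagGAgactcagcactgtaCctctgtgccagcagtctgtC
They differ at 10 positions, an identity of 83.3%. Positions are counted from 1 at the 5′ end of the stretch, with the base of Trbv26 first. The substitution C40G turns the codon TAC, which stands 2 codons before the cysteine codon at position 44, into the stop codon TAG. Trbv24 has 1 stop in this frame and Trbv26 has 0. The bases are those of the mm10 reference, and parental alleles were not analysed here.

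Per length, the order of the V genes changed in part. In TPM the highest were Trbv29 at 79.6, 76.2 and 70.8 in replicates 1, 2 and 3 (13.1% of V gene TPM), and Trbv13-2 at 75.6, 73.0 and 57.2 (11.8%). Of the 8 highest by counts, 7 remained among the 8 highest by TPM. Trbv19, whose entry of 566 bases is the longest, stood in the eleventh place by TPM and the sixth by counts, at 22.9 ± 3.44 TPM. Trbv2, with an entry of 560 bases, stood in the eighth by TPM and the third by counts, at 31.1 ± 3.32 TPM, and Trbv13-3, with 340 bases, in the fifth by TPM and the ninth by counts, at 35.9 ± 1.55 TPM. The lowest by TPM were Trbv23 at 2.42 ± 1.77 and Trbv12-1 at 4.36 ± 0.647. Position along the locus went with level weakly: over the 22 V genes Spearman's rho between locus order and share was -0.25 for counts and -0.12 for TPM.

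The second quantification, made from the reads against a transcript index, gave lower V counts. It held 2080, 2030 and 1842 V gene counts in replicates 1, 2 and 3, which is 0.731 ± 0.0251 of those in the first tables. For the constant regions the ratio was 0.940 ± 0.0135. In 16 of 22 V genes the second count was below the first in all 3 libraries, counts within 0.01 of each other being taken as equal. The ratio was lowest for Trbv20 (0.350 ± 0.125), Trbv13-3 (0.422 ± 0.0356), Trbv14 (0.447 ± 0.0960), Trbv30 (0.492 ± 0.209) and Trbv29 (0.497 ± 0.0595), and for the pseudogene Trbv24 it was 0.498 ± 0.0221. It was highest for Trbv26 (1.05 ± 0.0644) and Trbv16 (1.03 ± 0.174).

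These ratios changed the order at the top. Trbv29 had 160, 168 and 140 counts in the second quantification, against 343, 297 and 305 in the first tables for replicates 1, 2 and 3. Trbv13-2 had 273, 277 and 218, against 309, 270 and 234. Trbv13-2 was therefore the highest V gene of the second quantification, at 12.9% of V gene counts, followed by Trbv2 at 11.2%, Trbv19 at 8.54% and Trbv29 at 7.86%. The first 3 of these held 32.6% ± 0.390. The same 8 segments were the highest 8 in both, and 2 of the highest 3 were shared. Why the quantifications differ by segment was not tested.

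**Figure D4:**
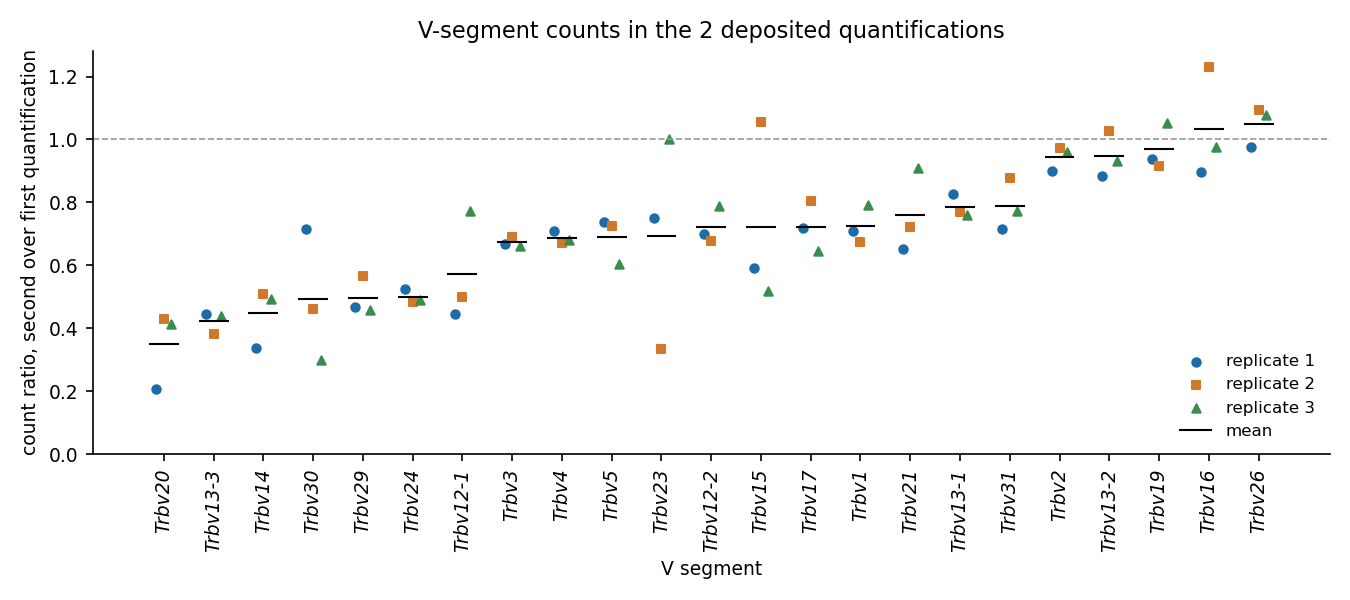
Ratio of the count in the second quantification to that in the first tables (vertical axis) for the 22 V genes and the pseudogene Trbv24 (horizontal axis, ordered by mean ratio), with points for the replicates and a bar for the mean. Means run from 0.350 for Trbv20 to 1.05 for Trbv26, and the dashed line marks a ratio of 1.

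The quantifications also differed in which annotated entry of a V gene they read. Trbv26 and Trbv23 have 2 entries each. In the second quantification a mean of 98.1 counts of Trbv26 was on the entry of 344 bases and 3.60 on that of 367 bases, while in the first tables all of its counts were on the entry of 367 bases. For Trbv23 the second quantification placed nearly all counts on the entry of 344 bases and the first tables all on that of 347 bases. Trbv31 was assigned to both of its entries, of 416 and 334 bases, with means of 103.2 and 53.2 counts in the first tables. In the second quantification these means were 119.5 and 2.82 counts. For Trbv30 the first tables placed all counts on the entry of 332 bases in replicates 1 and 3 (14 and 20). In replicate 2 they placed all 26 on that of 335 bases.

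Genes within the beta locus that are neither members nor constant regions had few counts in the first tables. Of 28 such genes, 22 had no count, 6 had any and 0 reached 1 TPM in all 3 libraries. The trypsinogen Prss2, one of the serine protease genes that lie between the V and D segments, had the most counts among the coding ones, with 6, 9 and 5 in replicates 1, 2 and 3. In the second quantification 7 of the 28 had a count. Prss2 had 7, 11 and 6 there. The lincRNA 5830405F06Rik, which shares exon sequence with Trbv4 and Trbv5, was assigned a mean of 139 counts there and 15.3 in the first tables. Outside the locus, Ephb6, a receptor of the ephrin family, reached 12.3 ± 2.17 TPM, and Moxd2 was at 0.

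The partners of the beta chain were abundant. Trac, the alpha constant region, reached 492 ± 16.4 TPM, and the CD3 and zeta chains that carry the receptor's signal reached 319 ± 10.2 (Cd3e), 194 ± 4.06 (Cd3d), 178 ± 12.9 (Cd3g) and 134 ± 1.64 TPM (Cd247). Ptcra, which pairs with the beta chain in thymocytes before the alpha chain is made, had 15.4, 8.13 and 6.59 counts in the second quantification, against 1, 0 and 0 in the first tables, in replicates 1, 2 and 3.

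Of 16 genes that carry out V(D)J recombination, 14 reached 1 TPM in all 3 libraries of the first tables. The exceptions were the recombinase genes. Rag2 had 13, 11 and 8.85 counts in replicates 1, 2 and 3 of the second quantification, against 0 in each library of the first tables. Rag1 had 0, 1 and 0 counts in both. Dntt, which adds untemplated bases at the joints, had 30, 35 and 38 counts (1.15 ± 0.127 TPM). The repair genes of end joining were all read, from Prkdc, the DNA-dependent kinase, at 9.91 ± 0.512 TPM, Xrcc6 and Xrcc5, its Ku partners, at 10.9 ± 0.841 and 8.83 ± 0.309, and Dclre1c (Artemis), which opens the hairpin ends, at 8.96 ± 0.640, to Lig4, the ligase, at 1.72 ± 0.287 and Nhej1 at 1.27 ± 0.135. Xrcc4 was at 8.50 ± 1.27, Paxx at 26.5 ± 0.703, the polymerases Poll and Polm at 3.78 ± 0.441 and 15.9 ± 0.690, and the damage kinase Atm at 24.0 ± 2.85 TPM. Hmgb1 and Hmgb2, chromatin proteins that bend DNA for the recombinase, stood at 135.4 ± 7.55 and 74.0 ± 12.4 TPM.

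The label of the cells was checked against marker lists. All 8 T-cell markers exceeded 1 TPM in each library, with summed levels of 1834 to 1941 TPM. At least 1 TPM in all libraries was also reached by 4 of 5 gamma-delta T-cell, 4 of 5 B-cell and 3 of 3 NK-cell markers. It was reached by 2 of 3 macrophage and monocyte and 2 of 2 neutrophil markers too. Summed levels were 32.0 to 41.9 TPM for 5 gamma-delta T-cell markers, whose cells use another receptor, 8.27 to 13.8 for 5 B-cell, 11.6 to 16.4 for 3 NK-cell, 18.3 to 23.2 for 3 macrophage and monocyte and 4.36 to 5.55 for 2 neutrophil markers. Of 5 thymocyte markers, 2 reached 1 TPM in all libraries, Cd1d1 and Dntt, and 4 of the 5 had counts in every library of the second quantification. The part that such cells have in the V segment values was not tested.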

How the data were processed

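Expected counts, TPM and FPKM per gene and transcript were deposited by the authors and come from transcriptome alignments to mm10 with GENCODE M21, per the README deposited with each sample. The deposited posterior SD and effective length came from the same tables, and FPKM was not used further. The second quantification holds estimated counts and TPM, which the authors made from the reads with an index of the same annotation, and was summed per gene. The software for alignment and quantification is not given in the sources used here. Spike-ins and 26248 entries named by a number only were left out.

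Members were found by symbol, with 1-based coordinates from the annotation. Members and gene lists were chosen with earlier results of these data known. Named with values per library are the 8 highest and 4 lowest V genes, every pseudogene, D or J segment with a count, members called variable, and the companion genes given; other members were singled out after their values were seen. Shares are of summed V gene counts, or of all V segments for pseudogenes. One group has no contrast, so expected counts, rounded to whole numbers, were fitted in edgeR 4.0.16 with an intercept only, TMM, filterByExpr and a robust quasi-likelihood fit. Each gene's residual dispersion was set against the abundance trend by an F test, with Benjamini-Hochberg adjustment at 0.05 over all genes. In a simulation over 13280 genes, each gene was given an assumed CV of 5% beyond counting error, which was not estimated from these libraries. There the fit recovered 96% of genes changed 2-fold and 100% of those changed 4-fold in 1 library, at mean counts of at least 50. Of its 197 calls, 1 was false. Trbv12-1, Trbv15, Trbv16 and Trbv30 entered the test with mean counts below 50, which the simulation does not cover.

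Alternatives were the second quantification, TPM, posterior mean counts, V pseudogenes included, count minimums of 1, 5 and 10, RLE factors, other filters, a non-robust fit, DESeq2 1.42.0 and each replicate left out. Software was R 4.3.3, limma 3.58.1 and Python 3.11.15 with numpy 2.4.6, pandas 2.3.3, biopython 1.88 and matplotlib 3.10.9. A count of 0 allows up to 3 counts, or 1.78e-05%, 2.00e-05% and 1.85e-05% of the counts of replicates 1, 2 and 3.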

Additional observations from a re-analysis of the deposited data

How the results depend on the processing

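V genes per 100 of the constant regions came to 19.7 in counts of the second quantification and 53.8 in TPM, against 25.3 in counts of the first tables (24.8 to 25.8 with each replicate left out). Trbv29, Trbv13-2 and Trbv2, the 3 highest V genes of the first tables, held 31.9% of counts in the second quantification and 29.2% with V pseudogenes included, against 30.2% in the first tables (29.7% to 30.7% with each replicate left out). Members with counts in every library numbered 24, also in the second quantification and with any replicate left out, and 22 at a minimum of 5 or 10 counts. The members called variable numbered 0 in edgeR and DESeq2 and under each alternative, with each replicate left out too, while the genes called in all ranged from 28 without robust fitting to 303 of 22813 without a filter on low counts. At an unadjusted p under 0.05 there was 1 member without a filter (Trbv23) and 1 without replicate 1 (Trbv3), and 0 in the other edgeR fits. Single shares of the 12 V genes given per library moved beyond their SD for 5 in TPM and 6 in the second quantification. Among these, Trbv29 was at 7.86% in the second quantification and 13.1% in TPM, and Trbv2 at 11.2% and 5.39%. This measure cannot judge the shares with a replicate left out, since dropping 1 of 3 libraries never moves a mean by its SD. Of the 7 differences between neighbours held apart, chosen for this check after seeing the data, 2 reversed in the second quantification (Trbv29 minus Trbv13-2, -5.01; Trbv13-3 minus Trbv17, -0.73 percentage points) and 1 in TPM (Trbv1 minus Trbv13-1, -0.22). One more no longer exceeded its SD in the second quantification (Trbv1 minus Trbv13-1, 0.479), and Trbv30 minus Trbv23 did not without replicate 2 or without replicate 3. The cause of these shifts was not tested.

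No paired analysis was possible because all 3 libraries belong to 1 group. With 3 libraries, samples were not tested for outlying values. Depth limits the low segments: Trbv23 rested on 2 to 15 counts per library, and D and J segments could not be measured at all.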
